A study of Mus musculus with 3 samples.

Results

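The genes described here are 37 developmental transcription factors, listed as homeobox genes, that lie outside the Hox clusters. Pax1 and Pax9 have a paired domain and no homeobox, but are counted among the 37 homeobox genes throughout. The 37 were chosen by symbol from 15 families (Dlx, Msx, Pitx, sine oculis homologues, Irx, Pax, Lhx, Emx, Otx, Meis, Prrx, Barx, Tgif, Alx and Cux). All 37 were found among 44625 gene entries. Their levels were read in 3 RNA sequencing libraries of Αlpha6+/Sca1- cells, which carry integrin alpha6 and lack Sca1. The cells were sorted from back skin of wild-type (WT) mice aged 56 days, when follicles rest for the second time (2nd telogen). No treatment, transgene or second genotype is named in the labels, and all 3 libraries form 1 group. The labels mention duplicates for 3 samples and do not say how many mice were pooled, so the SD over libraries may be partly technical.

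A homeobox encodes the homeodomain, a helical DNA-binding fold that reads short AT-rich sites, and each family pairs it with other parts that set partners and targets. Embryos use these factors to set out regions such as forebrain, limb, jaw, kidney and skin, and a cell lineage usually keeps few of them. Silent developmental genes often lie in broad regions with H3K27me3, the histone mark laid by Polycomb repressive complexes. In the follicle, Dlx3 and Msx2 are known for roles in the hair shaft, and Barx2 for a role in follicle remodelling.

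The libraries held 29283936 to 39198620 counts. All 10 hair follicle stem cell markers examined had at least 1 TPM (a transcript level corrected for gene length and scaled to the same sum in each library) in every library, led by Krt15. Itga6, which encodes integrin alpha6, had 112 ± 9.12 TPM, and Ly6a, which encodes Sca1, had 7.91 ± 4.31 TPM (SD, n = 3), so transcripts of Ly6a were found in cells labelled as lacking its protein. Of 10 fibroblast and dermal papilla markers 3 reached 1 TPM in every library, with a summed level of 23.8 to 54.8 TPM led by Col1a1, and Lum and Dpt at 0 counts. Of 8 melanocyte markers 3 did, with a sum of 40.05 to 60.6 TPM led by Mitf. The sums of the Merkel cell, muscle and endothelial lists, led by Piezo2, Acta2 and Pecam1, reached at most 1.06, 1.69 and 0.486 TPM. Within these lists, the Merkel cell genes Atoh1, Isl1 and Krt20, the muscle genes Des, Myod1, Myh4 and Pax7, and the endothelial genes Cldn5, Cdh5 and Emcn were without a count. Of 7 Schwann cell and neuron genes, 2 reached 1 TPM in every library, led by Ngfr, while Cdh19, Nefl and Snap25 were at 0 counts. Among 6 immune genes, 2 reached it, led by Cd74, and Lyz2 had 0 counts. In bulk RNA, fewer cells of a type and less RNA per cell cannot be told apart.

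Of the 37 listed genes, 16 had at least 1 TPM in all 3 libraries and are called detected. This is 43.2%, against 52.2% of all protein-coding genes and 27% of all entries. Another 11 had counts but did not reach 1 TPM in all libraries, with mean levels of at most 0.629 TPM. The remaining 10, with Pax1 and Pax9 among them, had 0 counts in all libraries, or 27.03%, against 25.7% of protein-coding genes. A count of 0 allows up to 3 counts, which for these 10 genes meant upper limits between 0.0550 and 0.131 TPM, covering counting error only. The median level over the 37 genes was 0.180, 0.390 and 0.311 TPM in replicates 1, 2 and 3, against 2.94, 1.95 and 2.00 TPM over protein-coding genes. Summed over all 37, the level was 952 ± 129 TPM (SD, n = 3), of which the Irx family held 51.8% ± 6.37.

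**Figure D1:**
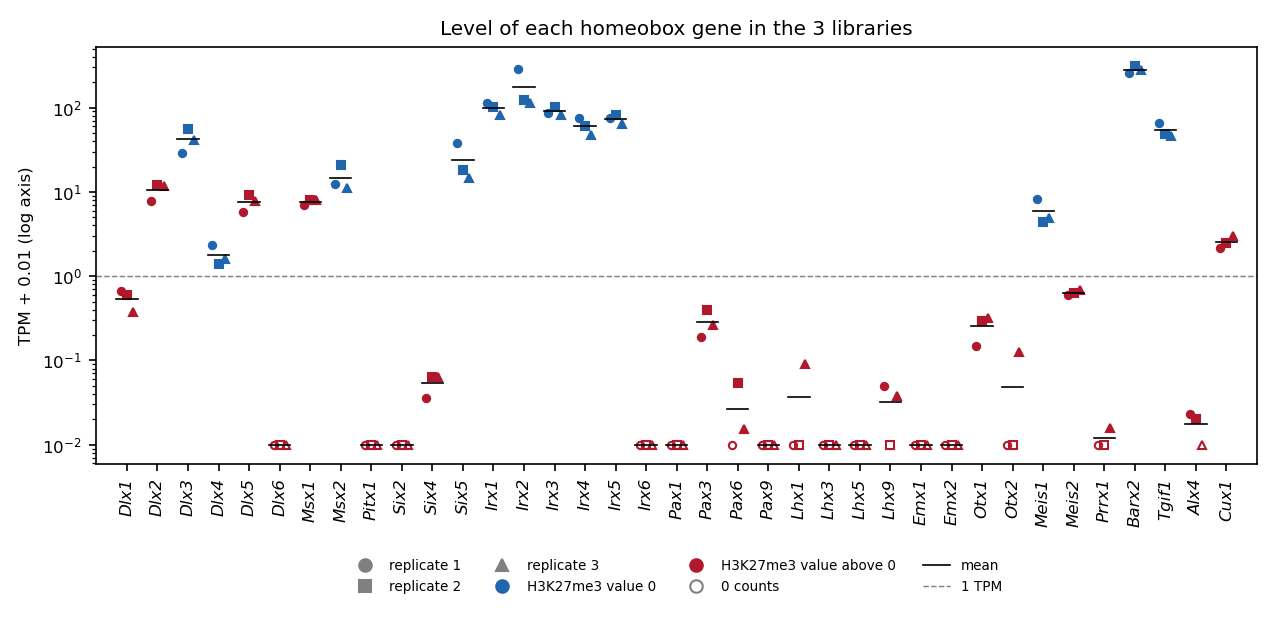
Level of each of the 37 homeobox genes (log axis, TPM + 0.01) in replicates 1 (circles), 2 (squares) and 3 (triangles), with the mean as a line, blue for genes with an H3K27me3 value of 0 and red for those with a value above 0. All 12 blue genes lie above the dashed line at 1 TPM, and 4 of 25 red genes do (Dlx2, Dlx5, Msx1 and Cux1).

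Barx2, a Bar-type homeodomain factor, had the highest mean of the set, with 258, 312 and 276 TPM in replicates 1, 2 and 3 (282 ± 27.8, SD, n = 3). The libraries lay close together, with the highest 1.21 times the lowest. Barx2 (ENSMUSG00000032033) lies on the minus strand of chromosome 9, from 31846044 to 31913462 on GRCm38.

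The Iroquois genes (Irx) encode TALE homeodomain factors, a class with an extended loop in the fold, and lie in a pair of genomic clusters with 3 genes each. On chromosome 13, Irx1 (71957921 to 71963723), Irx2 (72628820 to 72634198) and Irx4 (73260479 to 73269608) were all detected. Irx1 had 114, 102 and 80.9 TPM in replicates 1 to 3, a mean of 99.03 ± 16.7 (SD, n = 3). Irx2 had 284, 124 and 115 TPM, a mean of 174 ± 95.02. Irx4 had 75.9, 60.7 and 47.3 TPM, a mean of 61.3 ± 14.3. Irx2 was above Irx1, and Irx1 above Irx4, within each of the 3 libraries. On the log2(TPM + 1) scale Irx1 exceeded Irx4 by 0.58, 0.75 and 0.76, a steady difference, while Irx2 exceeded Irx1 by 1.31, 0.27 and 0.50.

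On chromosome 8, Irx3 (91798525 to 91802067) and Irx5 (92357625 to 92376286) were detected and Irx6 (92674288 to 92680956) was not. Irx3 had 86.5, 102.9 and 81.5 TPM, a mean of 90.3 ± 11.2 (SD, n = 3), and Irx5 had 75.2, 81.6 and 64.1 TPM, a mean of 73.6 ± 8.86. Irx3 was above Irx5 within each library, by 0.20, 0.33 and 0.34 on the log2(TPM + 1) scale, although their ranges over libraries overlap. Irx6 was at 0 counts throughout, with an upper limit of 0.0826 TPM. Irx3 was thus at least 1047-fold higher per unit length than the upper limit of Irx6 in the library with the smallest ratio. The gap between Irx5 and Irx6 is 298 kb, shorter than the 556 kb between Irx3 and Irx5. The Irx3 gene overlaps the antisense gene Irx3os, which had 2.52, 1.29 and 0.922 TPM, and strand use in counting was not stated.

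The distal-less genes (Dlx) lie in convergent pairs, and the members of each pair had unequal levels. In the pair on chromosome 11, Dlx3 (95120119 to 95125296) had 29.2, 56.0 and 41.0 TPM, a mean of 42.05 ± 13.4 (SD, n = 3). Its partner Dlx4 (95140447 to 95146263), known from placenta, had 2.36, 1.39 and 1.61 TPM, a mean of 1.78 ± 0.509. Dlx3 exceeded Dlx4 by 3.92 ± 0.71 on the log2(TPM + 1) scale, in the same direction in all 3 libraries. The antisense gene Dlx4os overlaps Dlx4 and had 138, 140 and 149 counts against 83, 62 and 81 for Dlx4, so the reads of both cannot be fully told apart without strand.

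In the pair on chromosome 2, Dlx2 (71543408 to 71546754), a factor of forebrain and pharyngeal arches, had 7.73, 12.1 and 11.9 TPM, a mean of 10.6 ± 2.46 (SD, n = 3). Dlx1 (71528113 to 71533981), used in the same tissues, had 0.653, 0.582 and 0.360 TPM from 38, 43 and 30 counts. Dlx2 was 11.8, 20.8 and 32.9 times as high as Dlx1 in replicates 1, 2 and 3. All of Dlx1 lies within the antisense gene Dlx1as, which had 75, 9 and 25 counts, so even the low level of Dlx1 is uncertain.

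In the pair on chromosome 6, Dlx5 (6877805 to 6882085), which acts in limb, jaw and bone, had 5.74, 9.10 and 7.85 TPM, a mean of 7.56 ± 1.70 (SD, n = 3). Dlx6 (6863334 to 6868568) had 0 counts in all libraries, an upper limit of 0.117 TPM. Dlx5 was at least 49.0-fold higher than the limit of Dlx6 in every library. The antisense gene Dlx6os1, which spans Dlx6, had 3, 1 and 12 counts. Dlx2, Dlx3 and Dlx5 were each lowest in replicate 1. That library was also lowest in the summed level of 9 of 14 marker lists. Among these, the 10 hair follicle stem cell markers summed to 26957, 33074 and 31346 TPM. The 6 suprabasal epidermis markers, all detected and led by Krt10, summed to 3316, 4475 and 7181 TPM. The 5 basal keratinocyte markers, all detected and led by Krt5, summed to 20015, 29405 and 26069 TPM. The fibroblast and dermal papilla markers summed to 23.8, 54.8 and 51.5 TPM. The sebaceous gland list (led by Mgst1), the muscle, endothelial and immune lists and the sorting antigens were the others. The part of these cells in the Dlx levels was not tested.

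Msx1 and Msx2 encode repressors that respond to bone morphogenetic proteins. Msx2 (chromosome 13, 53466884 to 53473074) had 12.6, 20.6 and 11.1 TPM, a mean of 14.8 ± 5.11 (SD, n = 3). Msx1 (chromosome 5, 37820485 to 37824583) had 6.89, 8.06 and 7.98 TPM, a mean of 7.64 ± 0.654. Msx2 exceeded Msx1 in all 3 libraries, by 0.78, 1.25 and 0.43 on the log2(TPM + 1) scale, and their ranges do not overlap.

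The other TALE genes are Tgif1, a corepressor in TGF-beta and retinoid signalling, and Meis1 and Meis2, partners of Hox and Pbx proteins. Tgif1 (chromosome 17, 70844205 to 70853546) had 66.1, 48.2 and 46.3 TPM, a mean of 53.5 ± 10.9 (SD, n = 3). Meis1 (chromosome 11, 18879817 to 19018985) had 8.20, 4.42 and 4.92 TPM, a mean of 5.85 ± 2.06. Meis2 (chromosome 2, 115863064 to 116065839) had 0.585, 0.625 and 0.678 TPM from 76, 103 and 126 counts. Meis1 was 14.01, 7.07 and 7.25 times as high as Meis2, so the order of the pair was the same in every library.

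Six5, a sine oculis family member, lies on chromosome 7 (19094594 to 19098549) and had 38.0, 18.3 and 14.8 TPM, a mean of 23.7 ± 12.5 (SD, n = 3). Six4, known from muscle development, had 3, 8 and 9 counts, at most 0.0538 TPM. Six2, which keeps kidney progenitors undifferentiated, had 0 counts, an upper limit of 0.131 TPM. Cux1, a factor with cut repeats beside its homeodomain, had 2.15, 2.45 and 2.97 TPM over a merged exon length of 20024 bases, from 464, 672 and 917 counts.

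None of the Pax, Lhx, Emx, Otx, Pitx, Prrx and Alx members was detected. Pax3, a factor of neural crest, melanocytes and muscle, had 12, 33 and 24 counts, or 0.180, 0.390 and 0.252 TPM. It was present in all 3 libraries at counts above those that 0 allows. The 8 melanocyte markers summed to 60.6, 43.3 and 40.05 TPM in replicates 1 to 3. Most of this was Mitf, with 44.4, 28.5 and 24.0 TPM. Dct, with 7.71, 9.21 and 7.14 TPM, and Pmel, with 5.92, 2.37 and 4.17 TPM, were also detected. Tyrp1 and Sox10 reached 1 TPM in some libraries only, Mlana had 6, 10 and 0 counts, and Tyr and Kit lay under 1 TPM. The part of melanocytes in the counts of Pax3 was not tested. Otx1, a forebrain factor, had 8, 21 and 26 counts, at most 0.311 TPM. Its relative Otx2 had 0, 0 and 6 counts. Pax6, the eye regulator, had 0, 7 and 1 counts. Lhx1, used in head and kidney, had 0, 0 and 5, and Lhx9, used in the gonad, had 4, 0 and 4. Counts of this size came from 1 or 2 libraries in several cases and do not separate these genes from one another.

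Prrx1, a factor of limb mesenchyme and fibroblasts, had 0, 0 and 1 counts, and Alx4, which overlaps Ext2 over 20312 bases, had 1, 1 and 0 counts. Pitx1, the hindlimb factor, and Pax1 and Pax9, used in the vertebral column, had 0 counts in all libraries, as did Lhx3, Lhx5, Emx1 and Emx2, known from pituitary and forebrain. Their upper limits were 0.105 TPM for Pitx1, 0.0620 for Pax1, 0.0550 for Pax9, 0.0914 for Lhx3, 0.104 for Lhx5, 0.127 for Emx1 and 0.0927 for Emx2.

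The detected genes formed a nearly continuous order of levels. By mean TPM it ran Barx2, Irx2, Irx1, Irx3, Irx5, Irx4, Tgif1, Dlx3, Six5, Msx2, Dlx2, Msx1, Dlx5, Meis1, Cux1 and Dlx4. Of the 15 neighbouring pairs, 13 had overlapping ranges over the libraries, and only the steps from Irx2 to Irx1 and from Meis1 to Cux1 did not. Irx2 overlapped Barx2 through replicate 1 alone, where it reached 284 TPM against 258 TPM for Barx2.

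Of the 16 detected genes, 7 reached their highest level in replicate 1, 8 did so in replicate 2 and 1 in replicate 3. Among detected protein-coding genes the shares were 59.8%, 20.9% and 19.3%. After rescaling by TMM factors, the counts were 6, 8 and 2 and the shares 40%, 29.2% and 30.8%, so the shares depended on the scaling. Replicate 1 exceeded both other libraries by more than 1 on the log2(TPM + 1) scale for Irx2 and Six5. This made 2 genes of 16, against 7.80% of protein-coding genes with a mean of at least 1 TPM and 10.6% of all such entries. None of the 16 lay below both others by that much in replicate 1, against 0.536% and 2.26%. Rescaling by TMM factors, which moved the median gene by -0.17, 0.07 and 0.09 in replicates 1, 2 and 3, left 0 of these 2 past that limit, although both stayed higher in replicate 1. Irx2 then exceeded replicates 2 and 3 by 0.94 and 1.02 on the log2 scale, and Six5 by 0.77 and 1.04. Without replicate 1 the mean of Irx2 was 119 TPM and that of Six5 was 16.6 TPM. The summed dissociation response markers, led by Fos and with all 12 detected, were also highest in replicate 1, with 27325, 17664 and 12604 TPM. Their part in the levels of Irx2 and Six5 was not tested. The median SD of log2(TPM + 1) over libraries was 0.29 for the 16 genes and 0.24 for detected protein-coding genes.

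**Figure D2:**
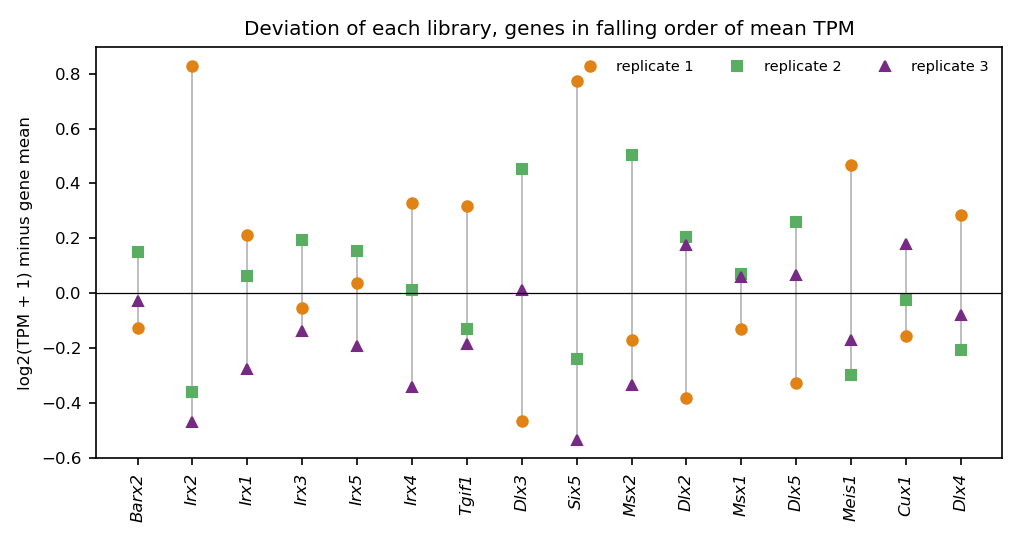
Deviation of each library from the gene's mean, in log2(TPM + 1), for the 16 detected homeobox genes in falling order of mean TPM; grey lines join the 3 libraries. Replicate 1 stands high for Irx2 and Six5 and low for Dlx2, Dlx3 and Dlx5, whereas Msx1 varied least (SD 0.11).

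The authors' deposited table also gives an H3K27me3 value per gene, a whole number whose unit, source cells and peak calling are not given in the sources used here. In the authors' deposited table the value was above 0 for 25 of the 37 genes (67.6%), against 11.2% of protein-coding genes. The 25 values ran from 13281 for Irx6 to 277425 for Cux1 in the authors' deposited table, with a median of 36079 against 7062 for protein-coding genes with a value. In 19 of the 25 the number exceeded the length of the gene in bases. A pair of genes side by side can share 1 value in the authors' deposited table, as Dlx1 and Dlx2 did with 23840, and Dlx5 and Dlx6 with 58231. The value of Cux1, the highest in the authors' deposited table, was shared with the muscle myosin gene Myl10, which had 0 counts in all libraries.

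Levels and H3K27me3 values divided the 37 genes. All 12 genes with a value of 0 in the authors' deposited table were detected, against 57.1% of protein-coding genes with a value of 0. These were Dlx3, Dlx4, Msx2, Six5, Irx1 to Irx5, Meis1, Barx2 and Tgif1, with mean levels from 1.78 to 282 TPM. Of the 25 with a value above 0, 4 were detected (16.0%), against 13.8% of such protein-coding genes. They were Dlx2, Dlx5, Msx1 and Cux1, with mean levels from 2.52 to 10.6 TPM. The 10 genes at 0 counts all had a value above 0, which is 40% of the 25, against 31.1% of such protein-coding genes. The median level of the 12 genes was 70.7, 58.3 and 46.8 TPM in replicates 1, 2 and 3, and that of the 25 was 0, 0 and 0.00586 TPM. No test is attached to this division, because the genes were listed with earlier results of these data known.

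**Figure D3:**
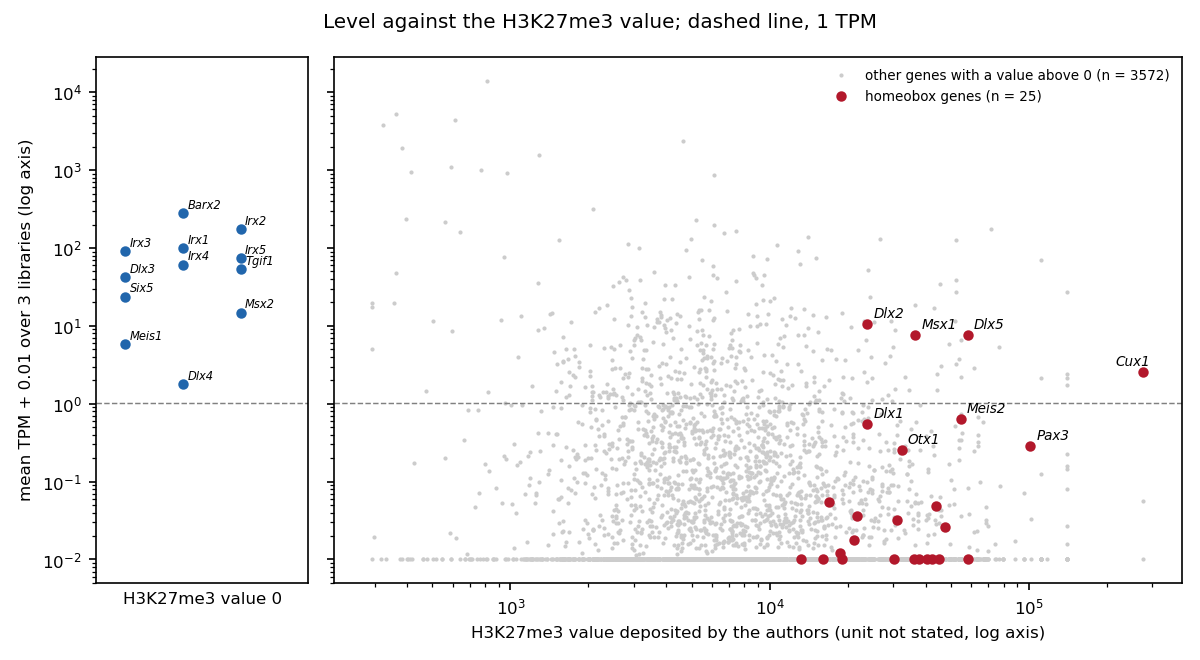
Mean TPM + 0.01 over the 3 libraries (log axis) for the 12 homeobox genes with an H3K27me3 value of 0 (left, blue, horizontal position arbitrary) and against the value for the 25 genes above 0 (right, red) and all other genes above 0 (grey). Dlx2, Msx1, Dlx5 and Cux1 are the red points above the dashed line at 1 TPM.

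The same families fell on both sides. Within Irx, the 5 genes with a value of 0 were detected and Irx6, with 13281 in the authors' deposited table, had no counts. Meis1 had a value of 0 and Meis2 a value of 54612 in the authors' deposited table, and Meis1 was the higher of the pair. Msx2 had a value of 0 and Msx1 one of 36567 in the authors' deposited table, while both were detected. Six5 was at 0, and Six2 and Six4 had 45202 and 16892 in the authors' deposited table. The pairs Dlx1 with Dlx2 and Dlx5 with Dlx6 held 1 detected and 1 undetected gene each under a shared value, so the value did not separate the genes within these pairs.

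RefSeq start-site sequences (GRCm38.p6) were matched by symbol for 24 of the 37 genes. Since this is 64.9% of them, under the 80% required, a comparison of base content over the set is void and none is given. The 250 bases before the start are shown for 6 genes that stand for the combinations above. They were picked by hand, and each has 1 start with at most 20 of these bases within the GENCODE gene. Irx4 (22 CG) and Meis1 (13 CG), detected with a value of 0, also met this limit and are not shown. Capitals mark CG dinucleotides, the sites of vertebrate DNA methylation, which are counted alike on both strands. Dlx2 (chr2:71546755-71547004, minus strand, 24 CG) and Msx1 (chr5:37824586-37824835, minus strand, 20 CG) had an H3K27me3 value and were detected. Lhx1 (chr11:84525535-84525784, minus strand, 26 CG) and Six2 (chr17:85688255-85688504, minus strand, 26 CG) had a value and were not detected. Irx2 (chr13:72628570-72628819, plus strand, 19 CG) and Six5 (chr7:19094294-19094543, plus strand, 13 CG) had a value of 0 and were detected.
Dlx2: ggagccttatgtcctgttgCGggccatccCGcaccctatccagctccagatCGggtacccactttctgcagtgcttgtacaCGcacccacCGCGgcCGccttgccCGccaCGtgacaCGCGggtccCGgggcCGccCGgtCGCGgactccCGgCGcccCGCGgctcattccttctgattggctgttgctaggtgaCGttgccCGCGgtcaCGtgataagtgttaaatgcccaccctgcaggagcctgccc
Msx1: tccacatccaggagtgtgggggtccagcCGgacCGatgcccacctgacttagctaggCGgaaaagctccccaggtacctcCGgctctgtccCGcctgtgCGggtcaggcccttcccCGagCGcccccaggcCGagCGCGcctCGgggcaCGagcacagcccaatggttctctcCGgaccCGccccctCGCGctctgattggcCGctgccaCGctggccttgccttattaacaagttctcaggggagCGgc
Lhx1: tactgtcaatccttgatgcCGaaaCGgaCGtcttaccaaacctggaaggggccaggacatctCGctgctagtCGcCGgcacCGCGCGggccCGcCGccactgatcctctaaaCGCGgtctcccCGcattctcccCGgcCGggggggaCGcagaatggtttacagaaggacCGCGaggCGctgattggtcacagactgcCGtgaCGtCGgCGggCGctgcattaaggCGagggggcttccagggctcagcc
Six2: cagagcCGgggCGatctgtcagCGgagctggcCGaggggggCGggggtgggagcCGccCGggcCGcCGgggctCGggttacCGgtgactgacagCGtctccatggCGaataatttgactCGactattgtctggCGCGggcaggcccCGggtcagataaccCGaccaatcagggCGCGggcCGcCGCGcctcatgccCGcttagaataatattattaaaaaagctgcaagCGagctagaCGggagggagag
Irx2: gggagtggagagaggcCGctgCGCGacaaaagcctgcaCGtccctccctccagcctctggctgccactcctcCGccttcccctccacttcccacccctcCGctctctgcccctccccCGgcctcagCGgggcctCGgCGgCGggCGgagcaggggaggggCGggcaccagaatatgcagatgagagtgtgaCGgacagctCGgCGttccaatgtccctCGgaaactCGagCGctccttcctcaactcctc
Six5: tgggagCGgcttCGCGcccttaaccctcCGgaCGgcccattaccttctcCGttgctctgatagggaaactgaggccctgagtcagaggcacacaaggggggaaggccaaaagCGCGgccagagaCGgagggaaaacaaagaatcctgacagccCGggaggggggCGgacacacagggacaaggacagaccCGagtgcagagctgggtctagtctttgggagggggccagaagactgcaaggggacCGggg
The other matched genes are not shown, and their windows held as few as 2 CG at 1 of the starts of Tgif1 and 4 at Lhx9 and Prrx1. At least 1 CG was found in 92.1% of all windows.

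The authors' deposited table holds a log2 fold change and an adjusted p-value per gene. By the column names it was taken to compare the present libraries with libraries of the bulge, the stem cell region of the follicle, which are not analysed here. A positive value means higher in the present libraries, since all 2555 genes with 0 counts here and a fold change had a negative one. An adjusted p-value was given for 23 of the 37 genes in the authors' deposited table. Of these, 10 were higher with an adjusted p under 0.05 (43.5%, against 23.6% of all 20274 genes with an adjusted p) and 3 were lower (13.04%, against 32.0%). All 16 detected genes were among the 23. Of these 16, 10 were higher, against 35.1% of genes with a mean of at least 1 TPM, and 2 were lower, against 25.6%. The same 16 of the 37 reach that mean. Such a limit is set on the present libraries only, so it favours higher calls by construction. The median log2 fold change in the authors' deposited table was 0.82 over the 23 genes and -0.36 over all 20274. With the limit it was 1.09 over the 16 genes and 0.25 over all genes with a mean of at least 1 TPM. Markers of other cells and states were also called higher in the authors' deposited table. They included 6 of 6 suprabasal epidermis markers (Krt10 with a log2 fold change of 3.29) and 4 of 5 upper follicle markers (Krt17 with 3.86). Also higher were 4 of 5 basal keratinocyte markers (Krt14 with 2.36), with 1 lower, and 3 of 6 sebaceous gland markers. Of 12 dissociation response genes, 9 were higher (Fos with 2.69) and 1 lower. Of 10 hair follicle stem cell markers, 4 were called higher and 3 lower in the authors' deposited table. The part of these cells and states in the homeobox calls was not tested.

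The 10 higher calls were Irx1 to Irx5, Barx2, Dlx2, Msx1, Msx2 and Six5. In the authors' deposited table Irx3 had the largest log2 fold change of the 37, 4.05 (adjusted p-value 5.48e-41), followed by Barx2 with 2.65 (adjusted p-value 5.77e-28). In the authors' deposited table the log2 fold change of the other Irx genes was 1.66 (Irx1), 1.36 (Irx4), 1.06 (Irx5) and 1.00 (Irx2), with adjusted p-values from 6.11e-12 to 0.000629. Irx3 and Irx5, from the same cluster, thus had unlike fold changes in the authors' deposited table, while their levels in the libraries studied here overlapped. Dlx2 had 2.30 with an adjusted p-value of 3.37e-06 in the authors' deposited table. Its neighbour Dlx1 had 0.82 with an adjusted p-value of 0.455 in the authors' deposited table, from few counts. Msx1 and Msx2 had similar log2 fold changes of 1.32 and 1.20 in the authors' deposited table, with adjusted p-values of 0.00650 and 0.00615. Six5 had 1.12 with an adjusted p-value of 0.00289 in the authors' deposited table. Among these calls, Irx2 and Six5 are the genes for which replicate 1 stood high. Without that library the mean of Irx2 fell from 174 to 119 TPM and that of Six5 from 23.7 to 16.6 TPM.

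The lower calls were Meis1, Meis2 and Dlx5. In the authors' deposited table the log2 fold change was -1.19 for Meis1 (adjusted p-value 2.37e-06) and -1.16 for Meis2 (0.00934). Dlx5 had -0.91 with an adjusted p-value of 0.0430 in the authors' deposited table, the weakest of the 13 calls. The remaining 10 genes with an adjusted p-value were not called. Among them, Dlx3 had 0.25 (adjusted p 0.597), Dlx4 0.33 (0.642), Tgif1 0.19 (0.386) and Cux1 -0.39 (0.253) in the authors' deposited table. Otx1, Six4, Pax3, Pax6 and Lhx9 had fold changes (log2) of 0.83, 0.46, -0.16, -1.19 and -1.79 in the authors' deposited table, with adjusted p-values from 0.219 to 0.893.

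**Figure D4:**
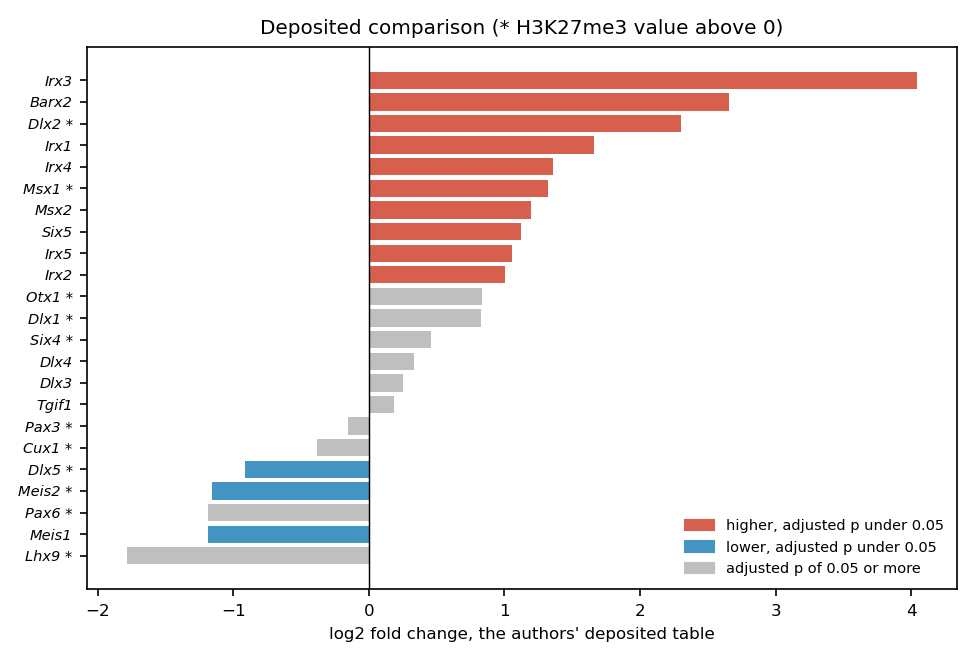
Log2 fold change from the authors' deposited table for the 23 homeobox genes with an adjusted p-value, red for higher and blue for lower at an adjusted p under 0.05, grey otherwise; a star marks an H3K27me3 value above 0. The 10 red bars run from 1.00 for Irx2 to 4.05 for Irx3, and the 3 blue bars are Meis1, Meis2 and Dlx5.

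The score in the authors' deposited table multiplies 3 terms, which are the log2 fold change, the negative log10 adjusted p-value, and H3K27me3 raised by 1. In the authors' deposited table Dlx2 had rank 12 and Msx1 rank 33 of 20274 scores, the highest of the 37 genes. Irx3, with a larger fold change but an H3K27me3 value of 0, had rank 557 in the authors' deposited table, and Barx2 had rank 776. Otx1 and Dlx1 had ranks 241 and 243 in the authors' deposited table although their adjusted p-values were 0.552 and 0.455 and neither was detected. Meis2, Dlx5 and Cux1 had ranks 20178, 20139 and 20130 in the authors' deposited table, near the negative end. The score of Cux1 joins the highest H3K27me3 value with a fold change that was not called.

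Homeodomain factors act with cofactors, and a list of 23 was read beside them. Of these, 16 were detected, against 52.2% of protein-coding genes. For all 16 the authors' deposited table lists 0 for H3K27me3, as it does for 10857 of 11187 detected protein-coding genes. The 16 were among 19 cofactors with a value of 0, against 57.1% detected of such protein-coding genes. The 4 with a value above 0 (Eya1, Eya4, Lmo2 and Meis3) were not detected, and 13.8% of such protein-coding genes were. The 3 highest were LIM partners. Lmo1, a LIM-only protein, had 179, 245 and 256 TPM, Ldb1, the LIM-binding adaptor, had 333, 178 and 143 TPM, and Lmo4 had 104, 107 and 83.7 TPM. Ldb1 was highest in replicate 1 and Lmo1 lowest there, so their order changed between libraries.

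Among TALE partners, Pbx2 had 42.8 ± 1.64, Pbx3 17.7 ± 0.826, Pknox1 14.3 ± 2.31 and Pknox2 4.01 ± 0.0102 TPM (SD, n = 3). The Groucho corepressors Tle4, Tle1, Tle3 and Tle2 had 35.9 ± 8.65, 17.4 ± 2.65, 14.8 ± 3.20 and 13.8 ± 10.1 TPM. Tle2 was highest in replicate 1, with 25.4, 7.18 and 8.66 TPM in replicates 1 to 3, and its mean without that library was 7.92 TPM. Of the partners of sine oculis factors, Eya2 had 25.3 ± 2.18, Eya3 15.4 ± 1.89 and Dach1 3.20 ± 0.580 TPM. Ldb2, a second LIM-binding adaptor, had 1.44 ± 0.501 TPM, and the LIM-only genes Lmo2 and Lmo3 were not detected. Of the 20 cofactors with an adjusted p-value in the authors' deposited table, 7 were higher and 4 lower at 0.05, against 23.6% and 32% of all genes with one. Among genes with a mean of at least 1 TPM, which most of the 20 reach, the shares were 35.1% and 25.6%. Lmo1 had the largest log2 fold change in the authors' deposited table, 3.89.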

How the data were processed

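One table of 44625 gene entries was used. It holds, per the file headers, counts per gene and TPM as deposited by the authors for each of the 3 libraries, with 29283936, 35264901 and 39198620 counts in all. The log2 fold change, its adjusted p-value, the H3K27me3 value and a score per gene were deposited by the authors, and their test, unit and adjustment are not given in the sources used here. The submitters' processing notes name FastQC, SAMtools, TopHat2, DESeq and DESeq2 and the builds mm10 and GRCm38, with no role. Another 6 columns of per-sample values match no sample in the labels and were not used in any step.

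Genes were matched by symbol, and coordinates come from GENCODE M21 (GRCm38) by identifier, found for 44392 entries. A gene was called detected at 1 TPM in all 3 libraries. Log2 values use a pseudocount of 1 TPM. With 1 group, no contrast was fitted and no test was run; called genes are those with a deposited adjusted p under 0.05. TMM factors came from edgeR 4.0.16 in R 4.3.3, and the calculations ran in Python 3.11.15. The deviation count and TMM were tested on simulated data. Alternatives were other detection limits, pseudocounts, thresholds, TMM scaling and leaving out each library. Homeobox genes and lists were chosen with earlier results of these data known. All 37 genes were named by rule, as were detected cofactors (1 is not reported here), the 10 highest other homeobox genes, the highest gene of each marker list and its genes at 0 counts.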

Additional observations from a re-analysis of the deposited data

How the results depend on the processing

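The counts of detected genes, over all 37 and over those with an H3K27me3 value, stayed within 1.5 times under every alternative run. Detected genes numbered 13 to 19 over other detection limits and a count rule, and 16 without any 1 library. The calls of higher genes were 10 under each stricter limit, and those of lower genes were 2, as Dlx5 was lost under both. The median level moved to 31.9 TPM when only genes with a mean of at least 1 TPM were kept, by the construction of that filter, and was 0.245 to 0.350 TPM without 1 library. With TMM factors, 0 genes passed the limit of 1 log2 in replicate 1, against 2 on the deposited scale; Irx2 (0.94 and 1.02) and Six5 (0.77 and 1.04) stayed above replicates 2 and 3. At this depth, genes at 0 counts could have levels up to 0.131 TPM. No paired analysis was possible because the libraries form 1 group.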

Other observations

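A further 98 homeobox genes outside the 37, listed without the Hox clusters, were read in the same way. Of these, 14 were detected and 45 had 0 counts in all libraries, against 52.2% and 25.7% of protein-coding genes. In the authors' deposited table, an H3K27me3 value above 0 stood for 79 genes, against 11.2% of protein-coding genes. Of these 79, 1 was detected, against 13.8% of such protein-coding genes. A value of 0 stood for 19, of which 13 were detected, against 57.1% of such protein-coding genes. The detected gene among the 79 was Lmx1b, a LIM factor of limb and kidney. It had 10.5, 7.87 and 11.2 TPM in replicates 1 to 3 and a value of 8944 in the authors' deposited table.

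Hopx, an atypical homeodomain protein, had 380, 278 and 348 TPM, and Lhx2, a follicle stem cell factor, had 330, 356 and 314 TPM. Both lay above every one of the 37 genes by mean level, and their ranges over libraries overlap each other. The range of Hopx also overlaps that of Barx2, whereas every library of Lhx2 lay above the highest of Barx2. The next by mean were Pou2f3 with 28.97 ± 2.12, Pou3f1 with 21.7 ± 9.42, Adnp2 with 17.5 ± 0.892 and Zhx1 with 15.2 ± 5.64 TPM (SD, n = 3). Zhx3, Hmbox1, Zhx2 and Pou6f1 had 11.7 ± 1.51, 10.4 ± 4.03, 10.1 ± 0.573 and 10.1 ± 1.83 TPM. Of the 35 with an adjusted p-value in the authors' deposited table, 4 were higher and 13 lower at 0.05, against 23.6% and 32% of all genes with one. The higher ones were Hopx, Pou3f1, Lmx1b and Pou6f1, with log2 fold changes of 1.97, 1.71, 0.75 and 0.72 in the authors' deposited table. Of the lower ones, Zhx1, Zhx2, Zhx3 and Hmbox1 had -1.65, -1.46, -2.59 and -1.71 in the authors' deposited table.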
